A study of Rattus norvegicus with 18 samples.

Results

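Bmal1, Nr1d1, Nr1d2 and Rorb are the genes of the clock loop in which REV-ERB and ROR nuclear receptors act on the Bmal1 promoter. They were taken as every probe set whose only gene symbol in the platform annotation of the array was one of these 4 names (Arntl is an older name of Bmal1). These 4 genes, of 4736 with a single symbol on the array, had 6 of the 8740 non-control probe sets: AF015953_at and AB012600_s_at for Bmal1, M25804_g_at and M25804_at for Nr1d1, U20796_at for Nr1d2 and L14610_at for Rorb. Current RefSeq gene records gave the same symbol for all 6.

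The tissue was the suprachiasmatic nucleus (SCN), the hypothalamic pacemaker of daily rhythms, taken from adult Long-Evans rats, all male. All animals had lived under 12 h of light and 12 h of darkness and entered constant darkness at circadian time (CT) 12. From the next CT 0 on, 5 rats were killed every 6 h and their RNA was pooled, and the pools of 0, 6, 12, 18, 24, 30, 36 and 42 h were analysed here. Time points were read on 1-colour rat oligonucleotide GeneChips, in a technical repeat of 8 arrays and a first run of 10 arrays. In the first run, 24 h and 36 h each had an array a and an array b. The labels do not state that these read 1 pool, which is assumed here. The labels name no mutation, treatment or separate control group, so the comparisons are between times, days and runs. No value shows how single rats differed, because rats were pooled before hybridisation.

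BMAL1 is the activator that pairs with CLOCK at E-box sequences and switches on the Per and Cry genes, and also Nr1d1 and Nr1d2. These encode REV-ERB alpha and REV-ERB beta, repressors that bind ROR elements and hold Bmal1 down. The ROR proteins bind the same elements as activators. RORB is a member of that family known from the SCN, the retina and other sensory parts of the nervous system. In the rodent SCN, Bmal1 RNA is known to run opposite in phase to the REV-ERB RNAs.

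The letters at which this loop is read are shown for the members' promoters, because the data compare genes that carry different elements. Sequences are the 250 bases before the annotated transcript start, from RefSeq on build GRCr8, 5′ to 3′ on the gene's strand. Capitals mark ROR element letters in Bmal1 (chr1:176766078-176766327, plus strand) and Nr1d2 (chr15:9954784-9955033, plus strand). They mark an E-box or a related E′ box at the 2 annotated Nr1d1 starts (chr10:84231813-84232062 for start 1 and chr10:84229455-84229704 for start 2, both minus strand).
Bmal1: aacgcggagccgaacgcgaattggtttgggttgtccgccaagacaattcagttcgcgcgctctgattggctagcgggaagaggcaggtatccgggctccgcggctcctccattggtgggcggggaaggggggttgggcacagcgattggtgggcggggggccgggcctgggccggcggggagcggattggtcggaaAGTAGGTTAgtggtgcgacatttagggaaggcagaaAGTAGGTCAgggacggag
Nr1d1 start 1: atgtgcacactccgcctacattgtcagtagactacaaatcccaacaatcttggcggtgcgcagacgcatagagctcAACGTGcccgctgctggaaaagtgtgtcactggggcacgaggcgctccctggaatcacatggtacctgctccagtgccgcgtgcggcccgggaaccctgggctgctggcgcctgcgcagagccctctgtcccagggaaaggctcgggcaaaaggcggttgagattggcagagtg
Nr1d1 start 2: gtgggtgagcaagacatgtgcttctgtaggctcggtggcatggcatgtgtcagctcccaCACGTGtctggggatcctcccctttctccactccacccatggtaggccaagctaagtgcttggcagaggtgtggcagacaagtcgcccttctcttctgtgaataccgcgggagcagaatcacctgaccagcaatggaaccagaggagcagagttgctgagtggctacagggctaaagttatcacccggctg
Nr1d2: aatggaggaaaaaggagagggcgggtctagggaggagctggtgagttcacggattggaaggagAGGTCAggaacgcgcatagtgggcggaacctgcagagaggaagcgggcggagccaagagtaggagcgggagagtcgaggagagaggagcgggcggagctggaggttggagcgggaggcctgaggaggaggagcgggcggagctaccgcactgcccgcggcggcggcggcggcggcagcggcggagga

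The Bmal1 promoter held AGTAGGTTA from 54 to 46 bases and AGTAGGTCA from 18 to 10 bases before the start. The shared pattern AGTAGGTNA, chosen after the Bmal1 promoter had been read, occurred on either strand in 0.511% of the 33469 promoters of this length. The shorter core AGGTCA, which lies within the second of these matches, occurred in 14.1%, and TAGGTCA, also within it, in 2.26%. Nr1d2 held AGGTCA from 187 to 182 bases before its start. Nr1d1 held CACGTG, an E-box found in 5.59% of promoters, from 191 to 186 bases before start 2. At start 1 it held the E′ box CACGTT on the opposite strand (4.07% of promoters), from 174 to 169 bases before the start. The Rorb window (chr1:225970974-225971223, minus strand) held none of the letters searched, which also included TGGGTCA (3.44%) and the D-box TTANNTAA (5.32%), neither of which was in any member's window. A match describes the letters only, and binding was not measured here.

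**Figure D1:**
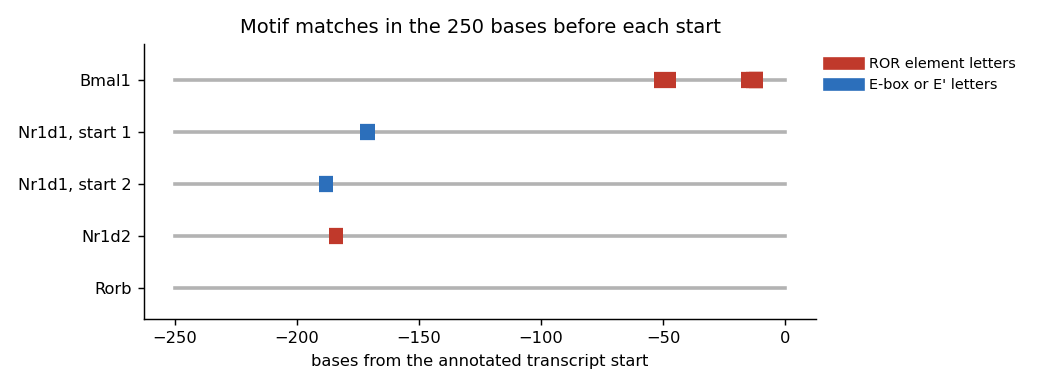
Motif matches before the annotated starts of the 4 genes. The horizontal axis gives bases from the transcript start, each line is the 250-base window of 1 start, and blocks are matches. Bmal1 has ROR element letters at 54 to 46 and 18 to 10 bases before its start, Nr1d1 has an E-box or E′ box at each of its starts, and Rorb has no match.

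Values are the authors' deposited intensities, the brightness of a probe set on a linear scale, and levels of different probe sets are not compared. Over pools, 4 of the 6 probe sets lay above the level needed for the main test, a geometric mean intensity of 121, which is the median over probe sets. Bmal1 AB012600_s_at, with a mean of 80.9, and Rorb, with 17.5, lay below it and were tested in a fit of all 8740 probe sets. SCN markers were present: of 10 listed, 6 were on the array and none was at or below the floor of 12.1, with Avp (vasopressin) at 742 to 4217 and Vip at 14.5 to 98.4. Genes of other cells were present too, among them Mbp (myelin) at 1089 to 13537 and Oxt (oxytocin) at 1527 to 6844, genes known from oligodendrocytes and from neighbouring hypothalamic neurons. In such bulk tissue, fewer cells of a type and less RNA per cell cannot be told apart.

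Arrays b stood apart. After removing each probe set's mean over the first run, arrays a and b of one time correlated at -0.36 for 24 h and -0.27 for 36 h across 4370 probe sets, whereas arrays b of 24 h and 36 h correlated at 0.55 with each other. The repeat and the first run of the same time correlated at only -0.02 to 0.17. The rhythm and the CT 12 minus CT 0 difference are therefore also given by run and without arrays b.

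By phase mean, Bmal1 read highest around projected dawn and lowest at CT 12 on both of its probe sets. The lowest single pool of AB012600_s_at was that of 18 h (26.7). On AF015953_at the 8 repeat arrays from 0 to 42 h read 255.6, 191.9, 112.3, 193.3, 244.8, 165.3, 147.4 and 262.6. The first run read 183.5, 284.5, 97.2, 227.7, then 305.8 and 371.7 on arrays a and b of 24 h, 170.5, then 152.4 and 206.0 on arrays a and b of 36 h, and 219.1. The array of 12 h was the lowest of its run both times. Averaged over runs, the 2 pools of CT 12 had 104 and 162, against 217 and 287 at CT 0, and these phases did not overlap. By phase the order was CT 0 (249), CT 18 (224), CT 6 (198) and CT 12 (130), and only CT 6 and CT 12 among neighbours in that order did not overlap.

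The second Bmal1 probe set, AB012600_s_at, swung further. Its repeat arrays read 154.2, 104.2, 34.1, 43.7, 205.2, 154.0, 42.2 and 41.4, low from 12 to 18 h and again from 36 to 42 h. The first run read 170.3, 122.1, 40.6, 16.3, then 206.0 and 37.7 on arrays a and b of 24 h, 157.3, then 139.9 and 28.8 on arrays a and b of 36 h, and 210.3. Arrays b were low at both times, and 42 h was the highest array of the first run and among the low ones of the repeat, a 5.08-fold gap. The pools of CT 12 had 37.2 and 51.8, against 134 and 162 at CT 0. CT 0 (148) and CT 6 (132) overlapped, as did CT 18 (49.9) and CT 12 (43.9), while every pool of CT 0 and CT 6 was above every pool of CT 18 and CT 12.

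**Figure D2:**
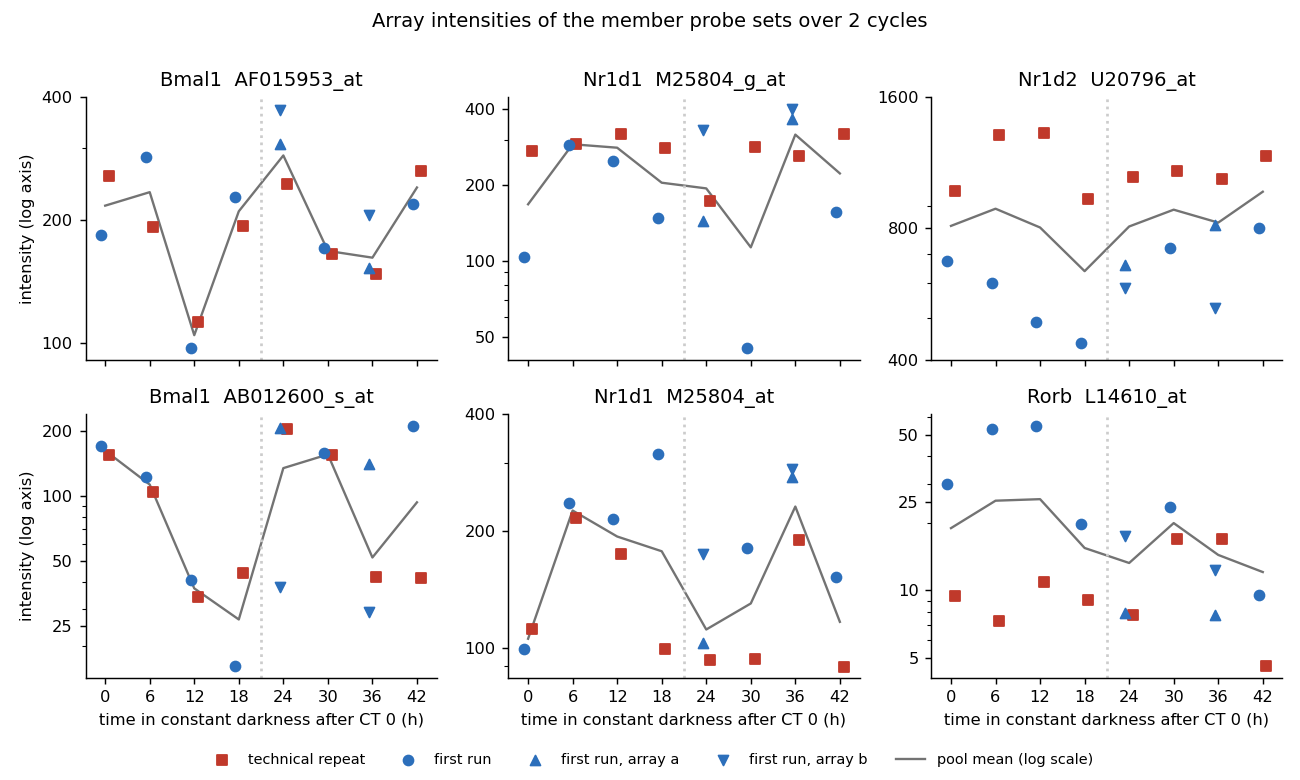
Intensity of each member probe set (vertical log axes, which differ by panel) against time from CT 0 in h. Squares are arrays of the technical repeat, circles and triangles those of the first run (a upward, b downward), the line is the pool mean after the floor of 12.1 was set, and the dotted line parts the days. Bmal1 AF015953_at is lowest at 12 h in both runs, and Nr1d2 is higher in the repeat at all 8 times.

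Nr1d1, the REV-ERB alpha gene, read highest at CT 12 and lowest at CT 0 by phase mean, the reverse of Bmal1. On M25804_at the repeat arrays read 112.0, 215.8, 174.3, 99.6, 92.9, 93.8, 189.9 and 89.4. The first run read 99.7, 236.8, 215.4, 316.5, then 102.9 and 174.8 on arrays a and b of 24 h, 180.9, then 275.8 and 288.5 on arrays a and b of 36 h, and 152.6. The runs differed most at 18 h, by 3.18-fold. Pools of CT 12 had 194 and 231, against 106 and 112 at CT 0, and the phases ran CT 12 (212), CT 6 (172), CT 18 (144) and CT 0 (109), of which only CT 18 and CT 0 were neighbours without overlap.

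On M25804_g_at the repeat arrays read 271.3, 290.7, 317.3, 280.0, 172.0, 282.9, 260.9 and 316.3, a narrow range with 24 h as the single low array. The first run read 103.3, 287.9, 247.7, 148.3, then 143.3 and 330.6 on arrays a and b of 24 h, 45.2, then 365.4 and 400.4 on arrays a and b of 36 h, and 155.5. At 30 h the runs were 6.26-fold apart. Pools of CT 12 had 280 and 316, against 167 and 193 at CT 0. CT 12 (298) did not overlap CT 18 (213) or CT 0 (180), and CT 18 did not overlap CT 0. CT 6 (181), with pools of 113 and 289, overlapped all 3. Nr1d1 overlaps Thra, the thyroid hormone receptor alpha gene, in the RefSeq annotation, whereas Bmal1, Nr1d2 and Rorb overlap no other protein-coding gene, and whether the Nr1d1 probes also read Thra RNA was not tested.

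Nr1d2, the REV-ERB beta gene, showed no shared order of phases in the 2 cycles. Its repeat arrays read 974.3, 1308.5, 1318.7, 933.0, 1049.8, 1081.0, 1038.8 and 1172.0. The first run read 673.6, 601.0, 489.3, 436.7, then 661.0 and 583.9 on arrays a and b of 24 h, 720.1, then 814.1 and 525.3 on arrays a and b of 36 h, and 802.4. Every repeat array was above every first-run array. Pools of CT 12 had 803 and 824, against 808 and 810 at CT 0. The pools of CT 18 held both the lowest and the highest value, 638 at 18 h and 970 at 42 h, and spanned all other phases. CT 6 (885) did not overlap CT 12 (814) or CT 0 (809).

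Rorb was near the lower end of the scale. Its arrays ran from 4.6 to 54.6 with a median of 11.6, and 9 of 18 were at or below the floor. The repeat arrays read 9.4, 7.3, 10.9, 9.1, 7.8, 17.0, 17.1 and 4.6. The first run read 30.0, 52.9, 54.6, 19.9, then 7.9 and 17.6 on arrays a and b of 24 h, 23.7, then 7.8 and 12.3 on arrays a and b of 36 h, and 9.5. Its higher readings were the first 3 times of the first run, which the repeat did not show. By phase the order was CT 6 (22.5), CT 12 (19.3), CT 0 (15.9) and CT 18 (13.7), and each phase overlapped the next, while the CT 6 pools lay above those of CT 0 and CT 18. With so many arrays at the floor, the fitted values of Rorb depend on where the floor is set. With a floor at the 25th percentile its amplitude was 0.12, its day difference -0.17 and its run difference -0.17, against 0.38, -0.51 and -0.82 with the 10th percentile.

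With limma, a curve of 24 h period (cosine and sine) was fitted over the 8 pools, and the amplitude is the log2 distance from the fitted mean to the peak. No probe set passed an adjusted p under 0.05 among the 4370 tested (0.0%) or among all 8740 (0.0%). At an unadjusted p under 0.05 the shares were 6.36% and 6.51%. In the filtered fit, Bmal1 AF015953_at and Nr1d1 M25804_at were among these, 2 of 4 members tested.

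Bmal1 AF015953_at peaked at CT 23.3 with an amplitude of 0.48 ± 0.14 (SE, 8 pools), with an adjusted p = 0.746 by limma and an exact permutation p = 0.0540. AB012600_s_at peaked at CT 2.59 with an amplitude of 1.12 ± 0.27, a 4.75-fold swing between fitted peak and trough, with an adjusted p = 0.729 by limma in the fit of all probe sets and an exact permutation p = 0.0540. Nr1d1 M25804_at had 0.50 ± 0.14 with a peak at CT 11.0, and an exact permutation p = 0.0794. Nr1d1 M25804_g_at had 0.38 ± 0.18 with a peak at CT 13.2, and an exact permutation p = 0.308. Both Nr1d1 peaks fell near projected dusk and both Bmal1 peaks near projected dawn. Nr1d2 had 0.08 ± 0.10, with an exact permutation p = 0.775, and Rorb had 0.38 ± 0.16, with an exact permutation p = 0.184. Without arrays b the amplitudes were 0.49 and 1.13 for Bmal1 AF015953_at and AB012600_s_at, 0.54 and 0.45 for Nr1d1 M25804_at and M25804_g_at, 0.0906 for Nr1d2 and 0.40 for Rorb. The permutations are 6 tests, two-sided by construction, and 0.00317 is the smallest p that the 315 distinct arrangements of 8 pools can give. With 1 pool a time, these p-values rest on how far pools scatter about the fitted curve.

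By run, Bmal1 followed the curve more closely in the repeat. AB012600_s_at had an amplitude of 1.36 in the repeat (exact permutation p = 0.00952, peak at CT 2.35, 6.63-fold swing) and 0.89 in the first run (exact permutation p = 0.425, peak at CT 2.96). Among all probe sets in the repeat alone, 6.81% had an unadjusted p under 0.05 by limma. AF015953_at had 0.51 in the repeat (exact permutation p = 0.0159) and 0.46 in the first run (exact permutation p = 0.270). A difference of curve between the runs did not pass for any member, the background at an unadjusted p under 0.05 being 3.11% above the level filter and 4.14% without it. Nr1d1 M25804_at had 0.51 in the repeat and 0.55 in the first run, with exact permutation p = 0.248 and 0.159. M25804_g_at had 0.21 in the repeat (exact permutation p = 0.387) and 0.56 in the first run (exact permutation p = 0.619). Nr1d2 had 0.14 and 0.12, and Rorb 0.17 and 0.61, in the repeat and in the first run.

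**Figure D3:**
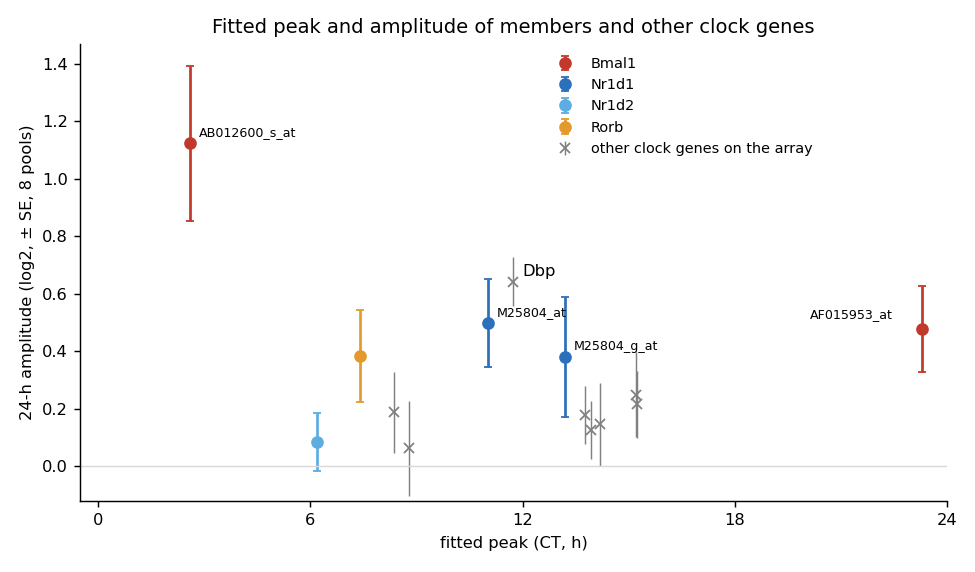
Fitted peak (horizontal axis, CT in h) against 24 h amplitude (vertical axis, log2, bars are SE over 8 pools) for the member probe sets (circles) and other clock genes on the array (crosses), where member bars come from the fit of all probe sets. Bmal1 peaks at CT 23.3 and CT 2.59, Nr1d1 at CT 11.0 and CT 13.2, and Nr1d2 has the lowest amplitude among members, 0.08.

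CT 12 was then set against CT 0. This difference was taken from the cosine term of the same 24 h fit, so it is not a separate reading of the pools. By limma, 0.0% of the 4370 probe sets passed an adjusted p under 0.05, and 8.67% had an unadjusted p under 0.05 (8.33% of all 8740). The log2 difference, CT 12 minus CT 0, was -0.94 ± 0.28 (SE) for Bmal1 AF015953_at and 0.96 ± 0.28 for Nr1d1 M25804_at, each with an adjusted p = 0.514 by limma. It was -1.75 ± 0.54 for Bmal1 AB012600_s_at, with an adjusted p = 0.592 by limma among all probe sets. For Nr1d1 M25804_g_at it was 0.73 ± 0.36, with an adjusted p = 0.585 by limma. Nr1d2 differed by 0.01 ± 0.21 and Rorb by 0.28 ± 0.32. Without arrays b these differences were -0.96 and 1.05 for Bmal1 AF015953_at and Nr1d1 M25804_at, -1.77 for Bmal1 AB012600_s_at, 0.86 for Nr1d1 M25804_g_at, 0.0652 for Nr1d2 and 0.34 for Rorb. In the repeat they were -0.96 and -2.23 for Bmal1 AF015953_at and AB012600_s_at, 0.83 and 0.41 for Nr1d1 M25804_at and M25804_g_at, 0.21 for Nr1d2 and 0.25 for Rorb. In the first run they were -0.92, -1.27, 1.09, 1.04, -0.19 and 0.30 in the same order. The value of AF015953_at leaned on the pool of 12 h, without which it was -0.60 and its 24 h amplitude 0.31. Both Bmal1 readings were lower, and both Nr1d1 readings higher, at CT 12 in both of 2 cycles, but none passed after adjustment over the array.

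**Figure D4:**
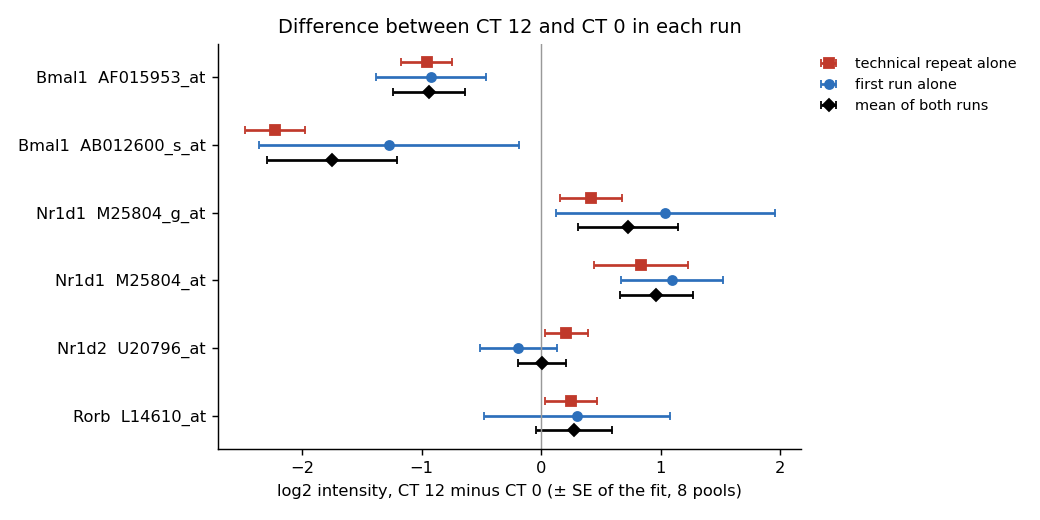
Log2 intensity at CT 12 minus CT 0 (horizontal axis, bars are SE of the fit without a level filter) for each member probe set, in the technical repeat alone, the first run alone and the mean of both. Bmal1 lies below 0 and Nr1d1 above 0 in each run, while Nr1d2 lies on either side of 0.

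No member passed limma's test of day 2 against day 1 in darkness after adjustment. The log2 difference, day 2 minus day 1, was 0.19 ± 0.20 (SE) for Bmal1 AF015953_at, 0.62 ± 0.32 for AB012600_s_at, -0.21 ± 0.26 for Nr1d1 M25804_g_at, -0.27 ± 0.19 for M25804_at and 0.16 ± 0.15 for Nr1d2. That of AB012600_s_at was 0.30 in the repeat and 0.94 in the first run, 0.32 without arrays a and 0.91 without arrays b. It was 0.33 without the pool of 18 h and 0.32 without that of 42 h. Rorb differed by -0.51 ± 0.12, with an adjusted p = 0.960 by limma, and by 0.25 in the repeat and -1.27 in the first run. Unadjusted p-values under 0.05 made up 3.96% of tested probe sets and 5.14% of all. For a curve that differed between days they made up 3.80% and 4.53%, and no member was among them.

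Between runs, Nr1d2 differed in every pool. It was higher in the repeat than in the first run in 8 of 8 pools, by 0.84 ± 0.14 (log2, SE), with an adjusted p = 0.00106 by limma. Nr1d1 M25804_at was lower in the repeat in 7 of 8 pools, by a log2 difference of -0.59 ± 0.18 with an adjusted p = 0.0216 by limma. That call was lost with quantile normalization (-0.33), median scaling (-0.30) and no level filter, and without the pool of 18, 24 or 30 h. Such differences were common: 20.0% of tested probe sets were higher and 26.5% lower in the repeat, and 30.0% passed among all 8740. The balance moved with scaling, to 23.7% higher and 21.0% lower with quantile normalization and to 37.0% and 12.8% with median scaling, which set the median of all tested probe sets at 0.24 (log2) against -0.06 as deposited. Nr1d1 M25804_g_at differed by 0.68 ± 0.32, opposite in sign to its partner probe set, with an adjusted p = 0.104 by limma. It passed with median scaling and without the pool of 24 h (0.95), and was 0.33 without that of 30 h. Bmal1 differed by -0.08 ± 0.15 on AF015953_at and -0.12 ± 0.40 on AB012600_s_at, and both turned to above 0 with quantile normalization and median scaling. Rorb differed by -0.82 ± 0.34, a value that rests on the floor, and passed without the pool of 36 h (-1.09).

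Markers of some cell types also differed on arrays b. Mbp read 1961 and 1089 on arrays b of 24 h and 36 h and 9155 and 7178 on arrays a, and the summed level of the 4 of 5 oligodendrocyte markers on the array was 18941 to 22420 on arrays b and 22428 to 31809 on the other first-run arrays, with none at or below the floor. That gap was in Mbp: the other 3 summed to 20459 on array b and 21124 on array a of 24 h, and to 17852 and 18492 at 36 h. The 3 of 4 astrocyte markers on the array summed to 3075 to 3942 on arrays b and 4806 to 6173 on the other first-run arrays. The 6 SCN markers summed to 24651 to 34114 on arrays b and 15554 to 24427 on the others. Gad1 and Sst, with medians of 10948 and 5398.5 over all arrays, made up most of that sum, and Slc1a3 (5456) most of the astrocyte sum. Arrays b lay within the other first-run arrays for choroid plexus markers (6234 to 7953 in 4731 to 8633). The same held for markers of neighbouring neurons (4916 to 7991 in 2396 to 8123). Against array a of the same time, however, neighbouring neuron markers were higher on array b, at 7991 against 3711.5 for 24 h and 4916 against 2396 for 36 h. Choroid plexus markers were lower on array b, at 7953 against 8633 and 6234 against 8214. Lists thus moved in different ways. Across arrays, Bmal1 AB012600_s_at and Mbp correlated at -0.48 over the 8 repeat arrays and 0.68 over the 10 first-run arrays. The other Bmal1 probe set, AF015953_at, correlated with Mbp at -0.58 in the repeat and -0.16 in the first run, and was higher on arrays b than on arrays a. Nr1d1 M25804_g_at correlated with Mbp at -0.19 in the repeat and -0.73 in the first run. These are descriptions of arrays that share pools, and the part of other cells' RNA in the readings was not tested.

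**Figure D5:**
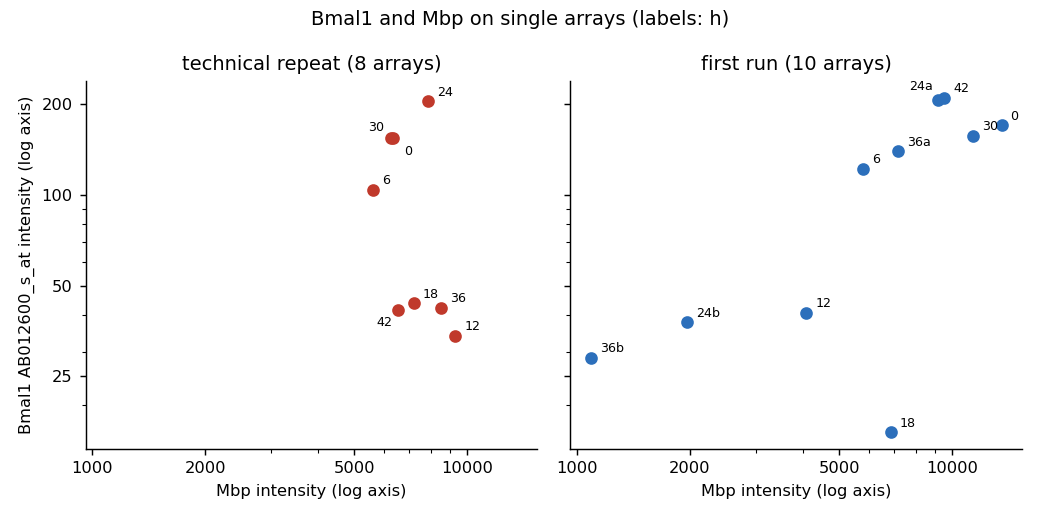
Intensity of Bmal1 AB012600_s_at (vertical log axis) against Mbp (horizontal log axis) on each array, labelled by time in h and array mark, in the technical repeat (left) and the first run (right). Arrays b of 24 h and 36 h are low for both genes, and the correlation is -0.48 in the repeat and 0.68 in the first run.

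The 2 probe sets of a gene read the same pools. For Bmal1 their log2 ratio had a 24 h amplitude of 0.89 (exact permutation p = 0.0508), and 1.15 in the repeat alone (exact permutation p = 0.0159). For Nr1d1 it was 0.27 (exact permutation p = 0.349). The Nr1d1 pair had the closest relation among the 15 pairs of member probe sets, with Pearson r = 0.72 (exact permutation p = 0.0431, adjusted over pairs 0.514) and Spearman rho = 0.81 (exact permutation p = 0.0218, adjusted 0.327) over 8 pools. Without the 2 pools farthest from the median it was 0.84, and within runs it was 0.28 in the repeat and 0.40 in the first run. Bmal1 and Nr1d1 correlated below 0 in each of their 4 pairings, at -0.62, -0.53, -0.47 and -0.21, the last, AF015953_at with M25804_g_at, being 0.10 in the first run or without the pool of 12 h. Without the 2 farthest pools these 4 were -0.68, -0.78, -0.25 and 0.20. Bmal1 AB012600_s_at and Nr1d2 correlated at 0.64 over pools, at -0.23 in the repeat, at 0.93 in the first run and at -0.09 without the 2 farthest pools. Over the means of both runs no pair passed after adjustment over pairs, and 1 had an unadjusted exact permutation p under 0.05. In the first run alone 1 pair passed.

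Among other clock genes, 8 of the 22 listed were on the array. Each was read on its brightest probe set alone, as were the partners below and the cell type markers. Dbp had 2 probe sets, Hlf 3 and Csnk1d 2, and 7 of the 8 genes were tested. None of these 7 passed the 24 h test by limma, and 1, Dbp, had an unadjusted p under 0.05, against 6.36% of the 4370 tested probe sets. Their median amplitude was 0.18, against 0.16 for all tested probe sets. In the fit over both cycles all 7 were higher at CT 12 than at CT 0, with a median difference of 0.24 against 0.01 for all tested probe sets. How many of all tested probe sets were higher at CT 12 was not counted. With median scaling the median difference of all tested probe sets was -0.08, and the list was not read in that setting. Single cycles differed: Hlf was lower at 12 h than at 0 h (115 against 137), and Per2 at 36 h than at 24 h (271 against 283). The fitted difference of Per2 was 0.08 ± 0.33 (SE). Dbp, a D-box activator driven by BMAL1 and CLOCK, had pools of 1243 and 1175 at CT 12, against 479 and 516 at CT 0. Its amplitude was 0.64 ± 0.09 with a peak at CT 11.7, close to both Nr1d1 peaks, and its adjusted p = 0.166 by limma. Bhlhe40 (0.22), Bhlhe41 (0.19), Csnk1d (0.18) and Tef (0.13) had smaller amplitudes. Of 23 listed partners of the REV-ERB and ROR proteins, 8 were on the array and 6 were tested, 0 passed by limma at an adjusted or an unadjusted p under 0.05, and their median amplitude was 0.19. Ncoa1, a nuclear receptor coactivator, had 0.49 ± 0.22, and among genes of heme, the REV-ERB ligand, Alad had 0.30, Hmox1 0.28 and Hmox2 0.11. Gsk3b, a kinase that acts on REV-ERB alpha, had 0.10.

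Over the 8 pools and 3584 probe sets, the profiles most like Bmal1 AF015953_at were those of Mapk9 (r = 0.96), Svil (0.95), Ctbs (0.94), Nudt4 (0.94) and Zfp148 (0.93). The most opposite were Fdft1 (-0.94), Stmn1 (-0.93), Slc7a3 (-0.93), Rps23 (-0.93) and Pou3f2 (-0.92). For Nr1d1 M25804_g_at the nearest were Kcnj11 (0.98), Slc22a13 (0.93) and Slc6a4 (0.92), and the most opposite Ptn (-0.95), Capn2 (-0.91) and Lipa (-0.87). Members were left out of this search, and the profiles share pools and arrays with them. The named genes are the ends of a ranking of 3584 correlations and were not tested. Between the first run and the repeat, the profile of M25804_g_at correlated at only -0.13 over the 8 pools, and that of AF015953_at at 0.73.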

How the data were processed

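The authors' deposited values are linear intensities of probe sets, and their summary algorithm is not given in the sources used here. Each array's mean after trimming 2% at each end was 500.7 to 500.8, while array medians were 107.9 to 127.6 in the repeat and 136.5 to 152.3 in the first run. Values below the 10th percentile (12.1) were set to it, log2 was taken, arrays a and b were averaged (assumed to read 1 pool, which the labels do not state), and then both runs equally. The 8 pools were the replicates, and the number of arrays limits the precision. The 59 control probe sets were left out. Tests used limma 3.58.1 in R 4.3.3 (5 residual degrees of freedom), with Benjamini-Hochberg adjustment over all tested probe sets, and exact permutation of pools for single probe sets (scipy 1.17.1). The fits recovered known curves on simulated data. Recovery was required only at an amplitude above that of every member probe set except Bmal1 AB012600_s_at. The simulated spread was that of probe sets above the level filter, which AB012600_s_at did not pass. No recovery rate is given here for a curve of any member's size and level. Other scalings, floors, filters, runs and left-out pools were tried. The members, gene lists and named-gene rule (all member probe sets, up to 5 genes a list by smallest p, and the nearest profiles) were chosen with earlier results of these data known. Promoter matches used RefSeq tables. The immortalised cells of the study were not analysed here.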

Additional observations from a re-analysis of the deposited data

How the results depend on the processing

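No member passed the 24 h test, the CT 12 against CT 0 test or the day tests in the main setting. Over all probe sets, calls of a 24 h rhythm numbered 2 with the 75th percentile filter, 2 with a trended robust prior and 1 in the repeat alone, against 0. Calls for CT 12 against CT 0 numbered 1, 1 and 2 in those settings, and 1 in the repeat alone without a level filter. The repeat against first run count was 1185 with the 75th percentile filter, which tested fewer probe sets and of the members only Nr1d2, against 2034. Nr1d2 kept its higher level in the repeat, past the threshold, in every alternative run.

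The CT 12 minus CT 0 value of Nr1d2 turned to -0.0789 with median scaling, -0.19 in the first run and -0.0481 without arrays a, and its day difference to -0.0458 in the repeat, where that of Rorb was 0.25. The repeat minus first run value of Bmal1 AF015953_at turned to 0.14 with quantile normalization and 0.22 with median scaling. That of AB012600_s_at turned to 0.19, 0.18 and, without arrays a, 0.18. Nr1d1 M25804_g_at passed with median scaling (0.98), and M25804_at no longer passed at -0.33 (quantile), -0.30 (median) and -0.59 (no level filter). The Bmal1 probe set difference passed at 0.77 with the 25th percentile floor and 1.15 in the repeat. In the first run alone, 1 pair of members correlated past the threshold. The largest r there was that of Bmal1 AB012600_s_at with Nr1d2 (0.93). AF015953_at with M25804_g_at turned to 0.10 in that run. The causes were not tested.

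Leaving out 1 pool at a time gave ranges of -0.00934 to 0.0395 for the CT 12 value of Nr1d2, -0.0544 to 0.61 for Rorb, 0 to 1 calls between days, 0 to 4 calls of a curve that differed by day, and -0.38 to 0.13 for the day difference of M25804_g_at. For the run difference they were -0.19 to 0.00174 for AF015953_at, 0.33 to 0.95 for M25804_g_at, -0.72 to -0.45 for M25804_at, -0.46 to 0.29 for AB012600_s_at and -1.09 to -0.56 for Rorb. For the probe set differences they were 0.59 to 1.15 for Bmal1 and 0.14 to 0.46 for Nr1d1, and for the correlation of AF015953_at with M25804_g_at -0.55 to 0.10. Newly past the threshold were the run differences of M25804_g_at without 24 h and Rorb without 36 h, the Bmal1 probe set difference without 42 h and that of Nr1d1 without 18 h (0.46, exact permutation p = 0.0190). The 24 h amplitude ranged from 0.31 to 0.60 for AF015953_at and from 0.0284 to 0.21 for Nr1d2. No replicate block was fitted, since time points share no replicate, and runs were compared within pools.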
